A study of Mus musculus with 12 samples.

Results

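Interferon stimulated genes are the genes that cells switch on in answer to interferons, and they were followed here gene by gene in mouse embryonic fibroblasts (MEFs). The list holds 34 genes, taken by name as rows of a gene table of 24453 genes, and each of the 4 cell lines was kept separate. Of the 34 genes, 31 had enough counts to be tested. Oas2, Mx1 and Cmpk2 were too low to judge by the filter that asks for about 10 counts per library.

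Type I interferons bind a receptor of 2 chains, Ifnar1 and Ifnar2, whose kinases Jak1 and Tyk2 phosphorylate factors that include Stat2. Stat2 and Irf9 are parts of the complex ISGF3, which binds the interferon stimulated response element (ISRE) in front of its target genes. Interferon gamma signals through Ifngr1 and Ifngr2 and acts on genes with gamma activated sites (GAS). Many target genes are also read at a low level without added interferon in fibroblasts, and their products bind or degrade viral RNA, modify proteins with Isg15 or block virus entry and release.

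All 12 libraries came from MEFs of strain C57BL6/J with the genotype Pnpt1 neo-flox/neo-flox, immortalized with large T-antigen, and all cells grew in medium with 50 µg/mL uridine. TM6 is the parental line and received no treatment. The rho0 line was made from TM6 with ditercalinium dichloride dihydrochloride at 750 ng/mL for 3 weeks, which removes mitochondrial DNA, and was then grown from a single colony. PKO-1 and PKO-6 are 2 lines grown from single colonies after infection of TM6 with an adenovirus that expresses Cre, which cuts out part of exon 2 of Pnpt1, the gene of the mitochondrial exoribonuclease PNPase. The paper reports that both PKO lines, like rho0, gave no signal for mitochondrial DNA and did not respire. The labels name no interferon treatment in any line. Each line gave 3 biological replicates, so each derived line is 1 clone, and the spread within a line is that between cultures of the clone. An effect of the treatment and a trait of the clone cannot be told apart in a single line.

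The libraries held 47164860 to 67991378 counts, of which 12.2% to 19.6% were the ribosomal RNA precursor Rn45s. Pnpt1 checked the labels: normalized counts were 2832, 3242 and 3320 in TM6, 5051, 5251 and 5510 in rho0, 1254, 1191 and 1276 in PKO-1 and 1897, 1720 and 2214 for PKO-6. These are counts over the whole gene, so the deleted part of exon 2 was not checked on its own. Of 8 fibroblast markers 7 were tested, and Thy1 was near 0 in all lines, with at most 5 counts. The summed fibroblast markers had medians of 467937 normalized counts in TM6, 225606 in rho0, 362805 in PKO-1 and 162371 in PKO-6. Most of this sum came from Col1a1, Col1a2 and Vim. Against TM6, 6 of the 7 tested were called lower and 0 higher in both rho0 and PKO-6. In PKO-1, Pdgfra (3.24 on the log2 scale) and Col3a1 (0.56) were called higher, and Col1a1 (−0.89) and Pdgfrb (−1.22) lower. Leukocyte markers (8, of which 4 were tested) summed to 262 to 617 normalized counts over all libraries, with Adgre1 at 0 and Ptprc at most 3 counts. In TM6, rho0, PKO-1 and PKO-6, the summed medians were 374, 280, 504 and 566 for leukocyte, 70.9, 21.2, 42.6 and 162 for endothelial and 263, 459, 818 and 111 for epithelial markers, with Krt5 at 0. Krt18 made up most of the epithelial sum in TM6, rho0 and PKO-1, with means of 242, 430 and 816 normalized counts. Against TM6, Krt8 was at −2.96 on the log2 scale in rho0, where it had at most 2 counts, and at −0.93 in PKO-1, not called. Epcam was at 0.88 and −1.50, not called. Kdr, most of the endothelial sum in PKO-6 with a mean of 142 normalized counts, was called lower in rho0 (−2.10) and PKO-1 (−1.32) and higher in PKO-6 (1.36). Tek, the other endothelial marker tested, was not called against TM6. Cd14, the largest of the leukocyte markers in each line, was called lower in rho0 (−0.86) and higher in PKO-1 (0.51). Single markers of other cell types moved in different directions in PKO-6: Lyz2 (57.3, 60.1 and 34.9 normalized counts against at most 1.07 in the other lines), Cd68 and Epcam (105 in its highest library against at most 11.2) rose, Krt18 fell by 4.88 on the log2 scale from TM6, and Krt8 (0.04), Csf1r (−0.21) and Cd14 (0.19) were not called. Lyz2 and Epcam passed the filter on low counts through PKO-6, so a high level there was a condition of being tested. Whether these shifts play a part in the results below was not tested, and fewer cells of a type and less RNA per cell cannot be told apart in bulk samples.

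The promoters of several of the genes hold letters that match the element ISGF3 binds, and stretches are shown for some genes lower in all derived lines or different between the PKO lines. Stat2 is not shown because the bases after its RefSeq start were not found in a GENCODE transcript. RefSeq promoters of build GRCm38.p6 were found for 26 of the 34 genes and searched over the 250 bases before the start for GAAANNGAAA and its reverse, TTTCNNTTTC. These letters were in 10 of the 26 (Stat2, Isg15, Ifit1, Ifit3, Oas1a, Oas3, Gbp2, Gbp3, Rsad2 and Bst2), against 3.46% of all 27025 genes with a promoter sequence. Oasl1, Oasl2 and Irf1, which also fell in all derived lines, do not hold these letters in the window. Gbp2, called higher in both PKO lines, holds them, as do Oas3 and Bst2, which were not called against TM6 in any line. Overlapping matches were counted as 1 stretch in the sequences below, each read 5′ to 3′ on the strand of its gene with the matches in capitals.
Isg15, chr4:156200855-156200916, minus strand: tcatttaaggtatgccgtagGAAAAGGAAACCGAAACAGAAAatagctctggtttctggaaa
Ifit1, chr19:34640765-34640833, plus strand: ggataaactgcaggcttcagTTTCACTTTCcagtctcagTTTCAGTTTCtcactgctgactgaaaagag
Ifit3, chr19:34583353-34583436, plus strand: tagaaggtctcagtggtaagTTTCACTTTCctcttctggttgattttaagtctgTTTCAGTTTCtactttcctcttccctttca
Oas1a, chr5:120907526-120907565, minus strand: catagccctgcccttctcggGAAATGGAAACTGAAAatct
Gbp3, chr3:142559979-142560034, plus strand: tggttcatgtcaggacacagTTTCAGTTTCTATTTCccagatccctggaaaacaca
Rsad2, chr12:26456543-26456592, minus strand: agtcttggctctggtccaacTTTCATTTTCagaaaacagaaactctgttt
The first match began 78 bases before the start in Isg15, 104 in Ifit1, 156 in Ifit3, 20 in Oas1a, 45 in Gbp3 and 120 in Rsad2. The GAS letters TTCNNNGAA, which read the same on both strands, were in 5 of the 26 genes (Irf1, Ifit2, Oas1a, Isg20 and Bst2), against 8.13% of all genes. A match is a description of the letters and not a shown binding site.

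Per length, the genes covered a wide range. In TPM, the share of transcripts per length that the authors deposited, Ifitm3 was the highest of the 34 genes in TM6, with 118.5 ± 8.86 (SD, n = 3), followed by Bst2 with 54.8 ± 2.73. The median over the 34 genes was 4.06 TPM in TM6, 1.95 in rho0, 2.67 in PKO-1 and 1.75 in PKO-6. In TM6, 10 genes were above 10 TPM and 8 below 1 TPM.

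**Figure D1:**
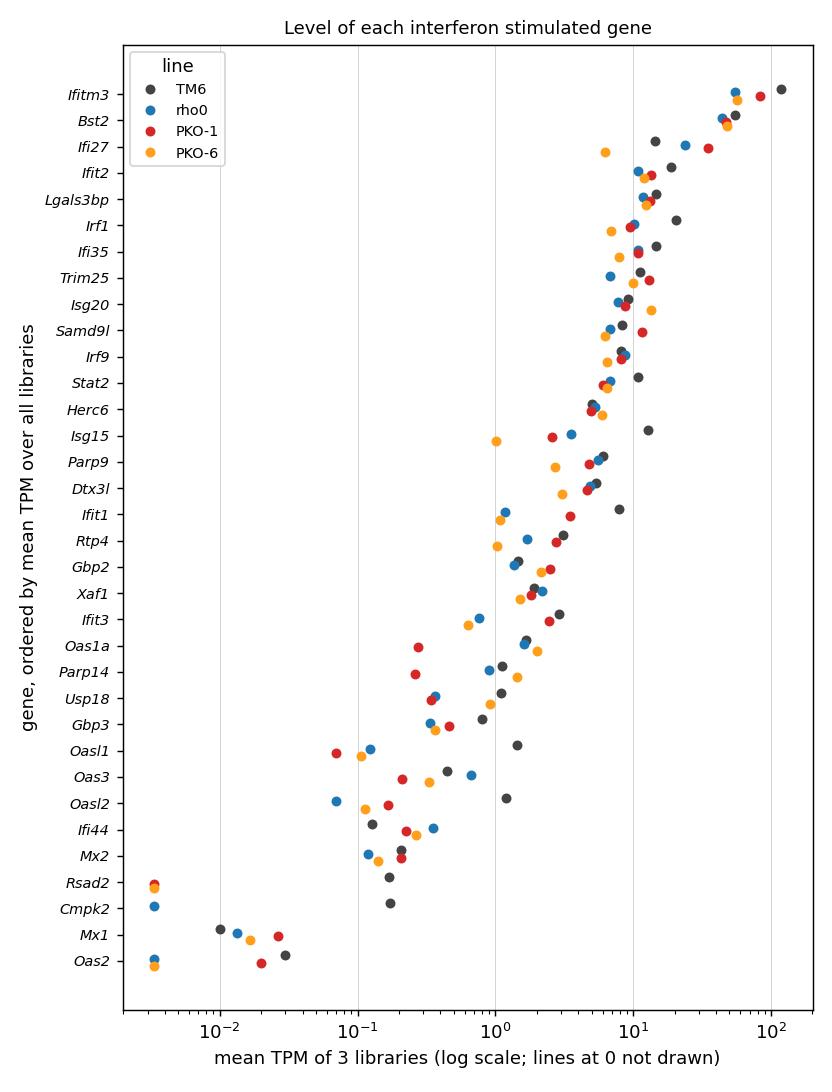
Mean TPM of 3 libraries (log axis) for each of the 34 genes in TM6, rho0, PKO-1 and PKO-6, with genes ordered by their mean over all libraries. Ifitm3 and Bst2 stand highest in TM6, at 118.5 and 54.8 TPM, and Oas2, Mx1, Cmpk2 and Rsad2 lie at the foot of the plot.

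Against TM6, more of the genes were lower than higher in each derived line. A gene was called when its adjusted p (edgeR quasi-likelihood test, Benjamini-Hochberg over all 14026 tested genes) was below 0.01 and its absolute log2 fold change was above 0.5. In rho0, 14 of the 31 tested genes were called lower and 2 higher, against 21.4% and 20.7% of all tested genes. In PKO-1, 11 were called lower and 3 higher, against 17.9% and 16.4% of all genes. In PKO-6, 16 were called lower and 2 higher, against 19.4% and 21.9% of all genes. The lower counts of each line, and the medians that follow, include Oasl1 and Rsad2. Both passed the filter on low counts through TM6 alone, so a higher level in TM6 was a condition of their being tested. The median log2 fold change of the 31 genes was −0.39 in rho0, −0.27 in PKO-1 and −0.59 in PKO-6, while the median of all tested genes was 0.02, 0.00 and 0.01. The 3 comparisons share the TM6 libraries. Libraries of a derived line did not overlap those of TM6 for 21 of the 31 genes in rho0 (72.8% of all genes), 21 in PKO-1 (71.8%) and 24 in PKO-6 (71.9%), and a lack of overlap alone is thus common in these lines. Between derived lines, 20 genes did not overlap for the 2 PKO clones (66.5%), 17 for PKO-1 and rho0 (69.5%) and 18 for PKO-6 and rho0 (56.7%).

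Of the 31 genes, 8 were called lower than TM6 in all 3 derived lines: Stat2, Irf1, Isg15, Ifit1, Oasl1, Oasl2, Gbp3 and Rsad2. Over all tested genes the share was 9.25%, and that of genes called higher in all 3 lines was 8.28%, which none of the 31 genes reached. Oasl1 and Rsad2 passed the filter on low counts through TM6 alone, so a higher level in TM6 was a condition of being tested. Without the 297 genes of that kind (an alternative chosen after seeing the data), 6 of the 29 genes left were lower in all 3 lines, against 8.09% of all genes left. The 8 and the 6 both include Gbp3, whose PKO-1 call was lost under several alternatives. Both also include Stat2, whose rho0 call was lost with chromosome medians removed. Another 5 were called lower in 2 lines, which makes 13 lower in 2 or 3 lines, against 18.1% of all genes (Ifit2, Ifit3, Ifitm3 and Rtp4 in rho0 and PKO-6, and Usp18 in rho0 and PKO-1). These 13 still include Oasl1 and Rsad2. Irf9, Herc6, Oas3, Mx2, Bst2, Xaf1 and Lgals3bp were called in none of the 3 lines, as were 39.5% of all genes.

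**Figure D2:**
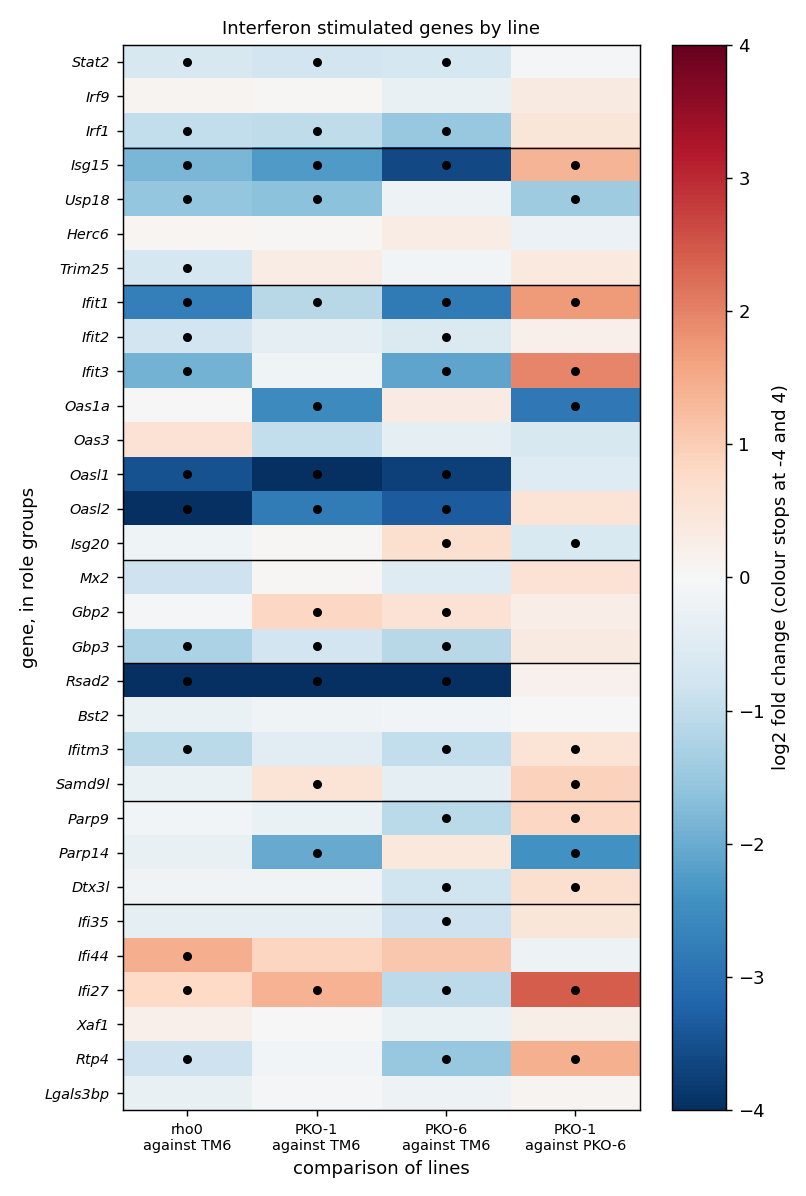
Fitted log2 fold change of the 31 tested genes in 4 comparisons of lines (colour, stopped at −4 and 4), with genes in role groups and black dots for called genes. Isg15, Ifit1, Oasl1 and Oasl2 are blue and dotted in the 3 comparisons with TM6, whereas Ifi27 changes sign between the PKO lines; the value of Rsad2, which is near 0 outside TM6, depends on the prior count of the fit.

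Of the transcription factors, Stat2 and Irf1 fell in every derived line and Irf9 did not pass in any. Stat2 had 1732, 1239 and 1519 normalized counts (counts divided by the relative library size) in TM6, 904, 951 and 1015 in rho0, 854, 818 and 963 in PKO-1 and 934, 886 and 951 in PKO-6. In the lowest TM6 library it was above every library of the derived lines, and the log2 fold change was −0.65 ± 0.10 (SE) in rho0, −0.77 ± 0.10 in PKO-1 and −0.70 ± 0.10 in PKO-6. With the median of each chromosome removed, Stat2 in rho0 was at −0.50 and no longer called. Irf1, a factor that interferon gamma and inflammatory signals induce, was at 1378, 1315 and 1239 normalized counts in TM6, 688, 645 and 647 in rho0, 634, 672 and 618 in PKO-1 and 442, 450 and 487 in PKO-6. PKO-6 was lowest without overlap, at a log2 fold change of −1.51 ± 0.07 from TM6 (adjusted p = 2.82e-10, edgeR), against −0.99 ± 0.07 in rho0 and −1.03 ± 0.07 in PKO-1. Irf9, the DNA-binding part of ISGF3, had 583 to 660 normalized counts in TM6, 635 to 700 in rho0, 636 to 652 in PKO-1 and 435 to 564 in PKO-6.

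The Isg15 system, in which a ubiquitin-like protein is joined to other proteins, was split. Isg15, the modifier itself, was at 265, 246 and 218 normalized counts in TM6, 74.6, 72.0 and 58.1 in rho0, 45.2, 51.1 and 55.8 in PKO-1 and 17.2, 20.7 and 21.3 in PKO-6. All 4 lines were without overlap, and the log2 fold change from TM6 was −1.83 ± 0.14 in rho0, −2.26 ± 0.15 in PKO-1 and −3.62 ± 0.17 in PKO-6. Usp18, which removes Isg15 from proteins and dampens receptor signalling, was at 72.6, 48.7 and 50.9 normalized counts in TM6, 19.4, 18.8 and 20.1 in rho0, 16.7, 11.7 and 26.9 in PKO-1 and 50.0, 50.8 and 49.4 in PKO-6. It fell in rho0 (−1.56 ± 0.26) and PKO-1 (−1.63 ± 0.27), while PKO-6 lay within the TM6 range (−0.20, 95% interval −0.74 to 0.34). Trim25, a ligase for ubiquitin and Isg15, fell in rho0 by 0.69 on the log2 scale, from 1895 to 2094 normalized counts in TM6 to 1220 to 1239, and was at 0.29 in PKO-1 and −0.10 in PKO-6. Herc6, the main Isg15 ligase of mice, was at 0.09, 0.05 and 0.30 in rho0, PKO-1 and PKO-6, below the fold threshold, and 23.8% of its 50-base windows occur in another annotated transcript, Gm45193.

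The Ifit genes, which bind RNA, fell in rho0 and PKO-6. Ifit1, whose protein binds viral RNA with an unmethylated cap, was at 648, 620 and 659 normalized counts in TM6, 91.0, 97.5 and 102 in rho0, 337, 306 and 250 in PKO-1 and 80.2, 95.3 and 97.0 in PKO-6. Rho0 and PKO-6 overlapped each other, PKO-1 lay between them and TM6, and the log2 fold change was −2.73 ± 0.12 in rho0, −1.11 ± 0.11 in PKO-1 and −2.82 ± 0.12 in PKO-6. Ifit3, a partner of Ifit1, was at 168, 163 and 186 normalized counts in TM6, 54.2, 37.7 and 46.9 in rho0, 169, 152 and 141 in PKO-1 and 43.4, 37.3 and 37.8 in PKO-6. It fell in rho0 (−1.89 ± 0.15) and PKO-6 (−2.12 ± 0.15), while PKO-1 overlapped TM6 (−0.16, 95% interval −0.48 to 0.15). The value of Ifit3 is uncertain, since 51.2% of its 50-base windows also occur in Ifit3b, so the counting could split reads between them. Ifit3b itself was at 57.9, 62.1 and 51.9 normalized counts in TM6, 51.2, 43.7 and 51.7 in PKO-1 and at most 6.22 in any library of rho0 and PKO-6. Ifit2, which can promote cell death, fell by 0.75 in rho0 and 0.59 in PKO-6 on the log2 scale, and was at −0.40 in PKO-1.

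The 2 Oas-like genes lost most of their RNA in all 3 derived lines. Oasl1, whose protein in mice binds RNA without making 2-5A and restrains translation of Irf7, was at 114, 83.1 and 79.8 normalized counts in TM6 and at most 8.86 in any library of the derived lines. The groups did not overlap, and the log2 fold change was −3.49 ± 0.32 in rho0, −4.26 ± 0.35 in PKO-1 and −3.73 ± 0.32 in PKO-6. PKO-1 replicate 3 held much of what was left in that line, and without it the PKO-1 value was −4.98. Oasl2, which makes 2-5A, the activator of the RNA-degrading enzyme RNase L, was at 136, 114 and 101 normalized counts in TM6, 7.75, 6.65 and 6.70 in rho0, 23.8, 14.9 and 12.4 in PKO-1 and 12.3, 9.33 and 12.6 in PKO-6. Its log2 fold change was −4.03 ± 0.27 in rho0, the line with the least of it, −2.78 ± 0.23 in PKO-1 and −3.33 ± 0.24 in PKO-6 (edgeR).

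Of the other Oas genes, Oas1a was called against TM6 in PKO-1 and Oas3 in none of the 3 lines. Oas1a was at 99.4, 76.4 and 105 normalized counts in TM6, 82.3, 93.1 and 102 in rho0, 20.2, 13.8 and 14.5 in PKO-1 and 131, 113 and 108 in PKO-6. PKO-1 lay far below the other lines (−2.53 ± 0.21 from TM6), and rho0 overlapped TM6 at −0.02 (95% interval −0.41 to 0.36). Of its 50-base windows 57.6% also occur in Oas1g, which makes the value uncertain. Oas3 varied widely within rho0, at 52.3, 129 and 116 normalized counts against 45.9 to 87.3 in TM6, and was not called. Without rho0 replicate 1 it was called higher in rho0, at 0.87, and lower in PKO-1, at −1.02. Isg20, an exonuclease for single-stranded RNA, rose in PKO-6 to 359 to 451 normalized counts from 244 to 279 in TM6 (0.65 ± 0.11) and was at −0.18 in rho0 and 0.05 in PKO-1. Oas2 had at most 5 counts in any library.

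**Figure D3:**
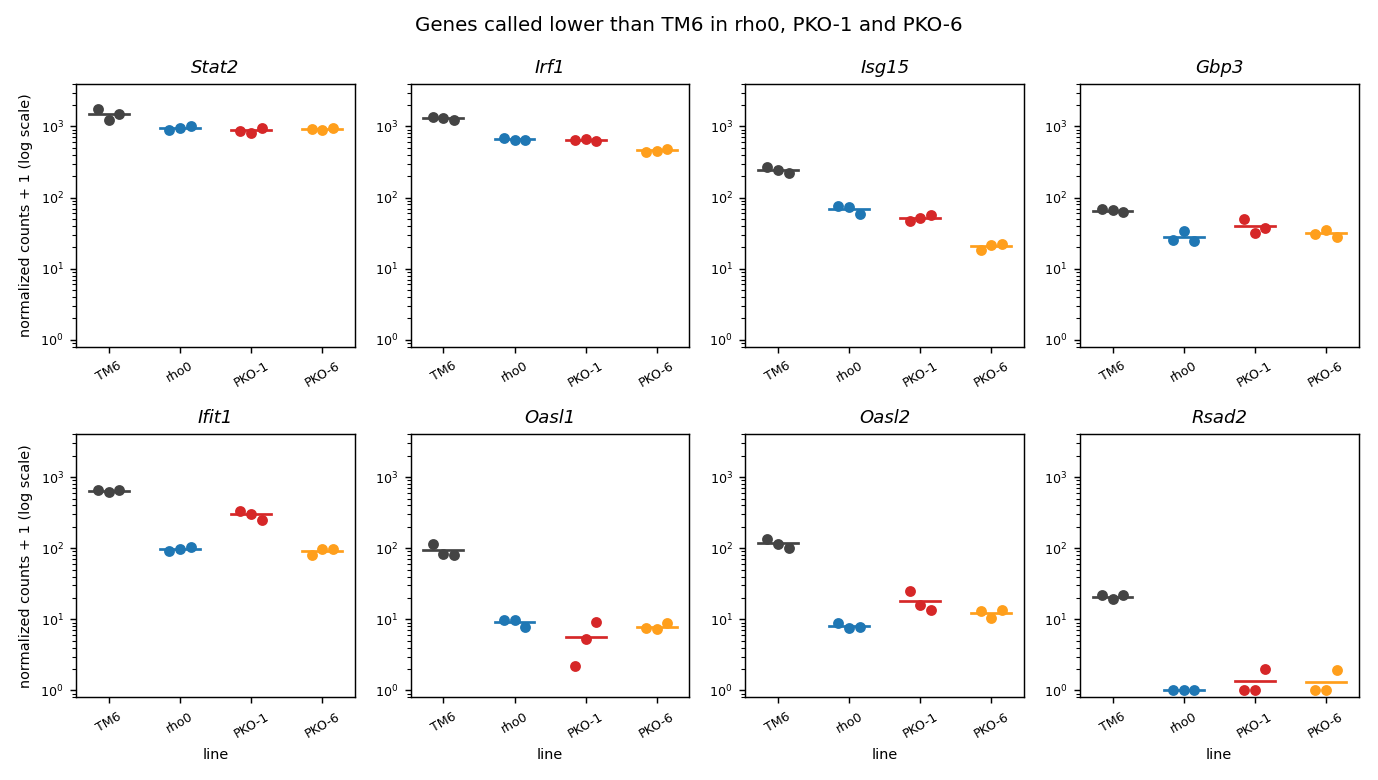
Normalized counts plus 1 (log axis) of the 8 genes called lower than TM6 in all 3 derived lines, with 1 point per library and a bar at the mean of each line (n = 3). Every TM6 point lies above every point of the other lines; Isg15 falls to 17.2 to 21.3 normalized counts in PKO-6, and Rsad2 has no count in rho0.

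Of the GTPases, Gbp2 and Gbp3, both guanylate-binding proteins that attack the vacuoles of intracellular pathogens, went different ways. Gbp3 was at 67.4, 65.0 and 61.8 normalized counts in TM6, 24.2, 33.2 and 23.4 in rho0, 48.8, 30.9 and 36.2 in PKO-1 and 29.5, 34.2 and 27.1 in PKO-6. It fell by 1.26 on the log2 scale in rho0, by 0.75 in PKO-1 and by 1.10 in PKO-6. The PKO-1 call (adjusted p = 0.00556, edgeR) was lost without any 1 TM6 library, at −0.75, −0.75 and −0.78, and without PKO-1 replicate 2 (−0.61) or 3 (−0.71). That call was also lost with the replicate block (−0.75) and in the DESeq2 Wald test (−0.78, adjusted p = 0.0106). Gbp2 was at 112, 113 and 107 normalized counts in TM6, 131, 77.6 and 108 in rho0, 193, 226 and 173 in PKO-1 and 153, 163 and 181 in PKO-6. It rose in PKO-1 (0.84 ± 0.17) and in PKO-6 (0.58 ± 0.17). This last call was lost without any 1 TM6 library (0.56 to 0.60), without any 1 PKO-6 library (0.52 to 0.61) and without rho0 replicate 3 (0.55). Mx2, a dynamin-like GTPase that restricts viruses, had 3.87 to 25.9 normalized counts over all libraries and no call, and Mx1 had at most 3 counts, so neither can be read further.

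Rsad2 and Cmpk2 lie side by side on chromosome 12 and were nearly absent outside TM6. Rsad2 (viperin), which turns CTP into a chain terminator of viral RNA synthesis, was at 20.8, 18.2 and 20.9 normalized counts in TM6, 0 in each rho0 library, and 1 count in a single library each of PKO-1 and PKO-6. It passed the filter on low counts through TM6 alone, and so had to be higher there to be tested, and its calls in all 3 lines are no independent support. Against a floor of 3 counts over the line it was at least 18.8-fold lower in rho0, and the ratio of summed counts was 54.8 in PKO-1 (95% counting interval 9.49 to 2198) and 64.2 in PKO-6 (11.1 to 2576). Cmpk2, a mitochondrial nucleotide kinase that supplies CTP, was at 18.2, 23.9 and 9.97 normalized counts in TM6, 1 count in all of rho0 and 0 in both PKO lines. It was removed by the filter and not tested, and its TM6 sum was 49.4-fold that of rho0 (8.52 to 1987) and at least 18.7-fold that of PKO-6, against the same floor. These bounds cover counting error only.

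Among the genes of membranes and virus entry, Ifitm3 fell and Bst2 did not pass. Ifitm3, which blocks fusion of viruses with endosomes, was at 1981, 1765 and 1694 normalized counts in TM6, 1020, 849 and 703 in rho0, 1261, 1393 and 1308 in PKO-1 and 914, 979 and 849 in PKO-6. All derived libraries were below all TM6 libraries, and the log2 fold change was −1.08 ± 0.11 in rho0, −0.46 ± 0.11 in PKO-1, which is under the fold threshold, and −0.99 ± 0.11 in PKO-6. The PKO-1 value passed without TM6 replicate 3, at −0.50. Of its 50-base windows 10.0% occur in other transcripts. Bst2 (tetherin), which holds budding virus at the cell surface, had 1010 to 1119 normalized counts in TM6 and 766 to 1049 in the derived lines, and its log2 fold changes were −0.27, −0.14 and −0.12. Samd9l, an antiviral restriction factor, rose in PKO-1, to 2144, 2050 and 2028 normalized counts from 1298, 1514 and 1452 in TM6 (0.55 ± 0.09), and this call was lost without TM6 replicate 1 (0.45) and with chromosome medians removed (0.32). In rho0 it was at −0.28 and in PKO-6 at −0.38, where it was called lower without PKO-6 replicate 3 (−0.50).

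The ADP-ribosylation genes differed between the PKO lines. Parp14, a mono-ADP-ribosyltransferase, was at 280, 267 and 237 normalized counts in TM6, 177, 223 and 237 in rho0, 63.1, 69.2 and 62.1 in PKO-1 and 328, 347 and 372 in PKO-6. It fell in PKO-1 by 2.01 on the log2 scale (SE 0.13) and was at 0.42 ± 0.11 in PKO-6, under the fold threshold. Parp9 and its partner Dtx3l, a ubiquitin ligase, moved the other way, with Parp9 at 655, 639 and 719 normalized counts in TM6 and 292, 322 and 331 in PKO-6, and Dtx3l at 872, 906 and 899 in TM6 and 506, 497 and 552 in PKO-6. Both fell in PKO-6, by 1.09 and 0.78 on the log2 scale, and neither passed in rho0 or PKO-1. The genes overlap on opposite strands over 334 exonic bases, and since the strand setting of the counting is not given in the sources used here, reads of that stretch cannot be assigned to either.

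Of the remaining genes, Ifi27 went in opposite directions. Ifi27, a small protein of mitochondrial and nuclear membranes, was at 408, 372 and 338 normalized counts in TM6, 741, 615 and 607 in rho0, 894, 1069 and 966 in PKO-1 and 206, 181 and 156 in PKO-6. All 4 lines were without overlap: it rose in rho0 (0.81 ± 0.12) and PKO-1 (1.39 ± 0.12) and fell in PKO-6 (−1.04 ± 0.12). The median tested gene of chromosome 12, where it lies, was at 0.55 in rho0, 0.56 in PKO-1 and 0.53 in PKO-6, and with chromosome medians removed Ifi27 was at 0.28 in rho0, no longer called, 0.84 in PKO-1 and −1.57 in PKO-6, both still called. It shares 103 exonic bases on opposite strands with Ifi27l2a.

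Rtp4, a receptor transporter that also restrains RNA viruses, was at 141, 151 and 135 normalized counts in TM6, 78.5, 79.8 and 80.4 in rho0, 150, 135 and 113 in PKO-1 and 54.0, 51.8 and 42.7 in PKO-6. It fell in rho0 (−0.84 ± 0.14) and PKO-6 (−1.52 ± 0.15), and PKO-1 overlapped TM6. Ifi35, which partners with Nmi, fell in PKO-6 (−0.83 ± 0.09), from 539 to 589 normalized counts to 302 to 340, and was at −0.39 in rho0 and −0.36 in PKO-1, and without rho0 replicate 1 the rho0 value was −0.51 and called. Ifi44 was called higher in rho0 (1.46 ± 0.41), at 35.8, 31.0 and 30.1 normalized counts against 19.9, 8.60 and 5.98 in TM6, and this call was lost without any 1 rho0 library (1.36 to 1.49) and without TM6 replicate 2 (1.28) or 3 (1.16), while without TM6 replicate 1 it was 2.11. In PKO-6 it was at 1.06 and was called higher without TM6 replicate 1 (1.70) or PKO-6 replicate 2 (1.33). Xaf1, a promoter of apoptosis, and Lgals3bp, a secreted glycoprotein, had absolute log2 fold changes of at most 0.29 in the 3 comparisons.

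PKO-1 and PKO-6, which were made with the same Cre virus, differed from each other in 13 of the 31 genes. Of these, 9 were higher in PKO-1 and 4 lower, against 11.5% and 17.6% of all tested genes, and the median difference over the 31 genes was 0.35 on the log2 scale, against −0.01 for all genes. Ifi27 (2.43 ± 0.12), Ifit3 (1.95 ± 0.15), Ifit1 (1.71 ± 0.12), Rtp4 (1.41 ± 0.15) and Isg15 (1.37 ± 0.18) were higher in PKO-1 by more than 1 on the log2 scale, and Samd9l, Parp9, Dtx3l and Ifitm3 by 0.53 to 0.92. Oas1a (−2.86 ± 0.21), Parp14 (−2.43 ± 0.13), Usp18 (−1.43 ± 0.27) and Isg20 (−0.60 ± 0.11) were lower in PKO-1. The call of Ifitm3 was lost without PKO-1 replicate 2 (0.49) or PKO-6 replicate 3 (0.48), and with chromosome medians removed Ifitm3 (0.42) and Dtx3l (0.43) were not called. Irf1, at 0.48 between the clones, was called without PKO-1 replicate 3 (0.51) or PKO-6 replicate 3 (0.53), and Ifi35, at 0.47, without PKO-6 replicate 2 (0.52). All 7 tested fibroblast markers were also higher in PKO-1 than in PKO-6, with a median of 1.35, and their part in these differences was not tested.

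**Figure D4:**
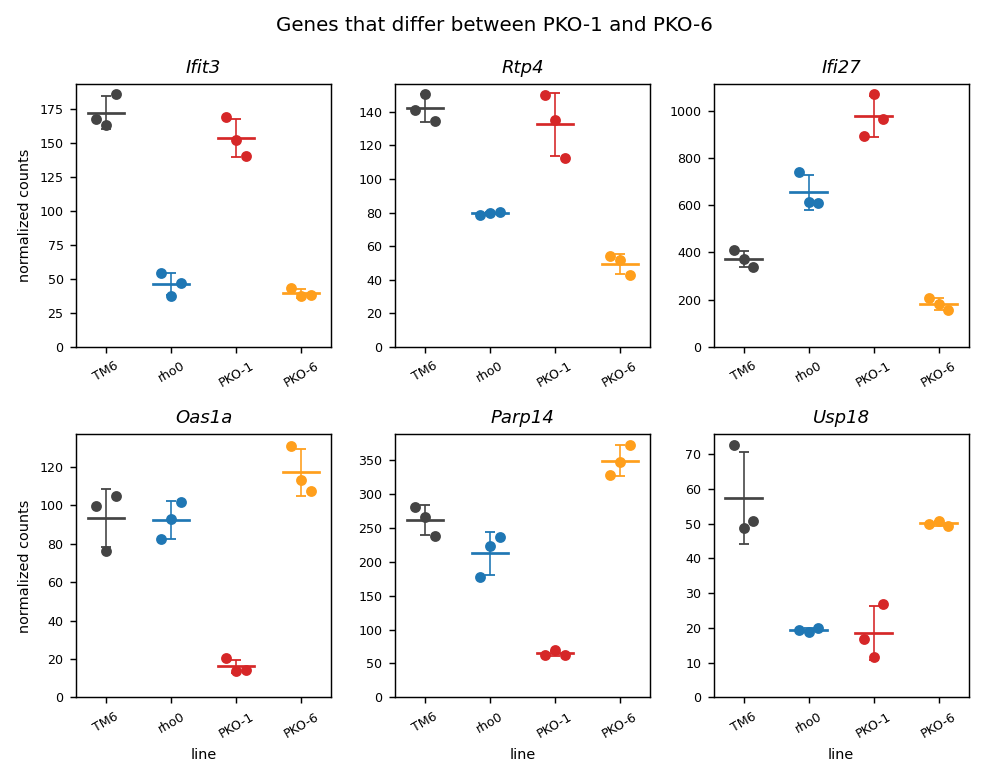
Normalized counts per library (linear axis from 0) of 6 genes that differ between PKO-1 and PKO-6, with 1 point per library, a bar at the mean and whiskers of 1 SD (n = 3). Ifit3 and Rtp4 stay near TM6 in PKO-1 and are low in rho0 and PKO-6, Ifi27 is highest in PKO-1 and lowest in PKO-6, and Oas1a and Parp14 are low in PKO-1 alone among the lines drawn.

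Set against rho0 rather than TM6, in 2 comparisons that share the rho0 libraries, neither PKO line was the nearer to rho0 in all genes. Ifit1, Ifit3, Oasl2, Ifitm3, Samd9l, Oas1a and Oas3 were called against rho0 in PKO-1 and not in PKO-6. Irf1, Isg15, Usp18, Isg20, Parp9 and Dtx3l were called in PKO-6 and not in PKO-1. Against rho0, 9 genes were called higher in PKO-1 and 3 lower, where 15.1% and 17.6% of all genes were, and 5 were called higher in PKO-6 and 6 lower, where 13.3% and 8.16% were. Ifit1 differed from rho0 by 1.62 ± 0.12 in PKO-1 and by −0.09 ± 0.13 in PKO-6 (95% interval −0.40 to 0.21), and Ifit3 by 1.73 ± 0.15 and −0.23 ± 0.17. The other genes higher in PKO-1 than rho0 were Trim25, Oasl2, Gbp2, Ifitm3, Samd9l, Ifi27 and Rtp4, at 0.58 to 1.24, and Oas1a, Oas3 and Parp14 were lower. Usp18 (1.36), Trim25, Isg20, Gbp2 and Parp14 were higher in PKO-6 than rho0, and Irf1, Isg15 (−1.79), Parp9, Dtx3l, Ifi27 (−1.85) and Rtp4 were lower. In PKO-1, Oasl2 (1.24) lost its call without any 1 rho0 library (at most 1.30) or without PKO-1 replicate 1 (0.94), and Ifitm3 (0.62) without rho0 replicate 3 (0.49). In PKO-6, Gbp2 (0.64) lost its call without rho0 replicate 2 (0.46) or 3 (0.65) and without any 1 PKO-6 library (0.58 to 0.69), Rtp4 (−0.68) lost it without PKO-6 replicate 3 (−0.58), Oas3 (−0.93) gained one without rho0 replicate 1 (−1.26), and Ifi35 (−0.44) without rho0 replicate 2 (−0.52).

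Upstream of these genes, the interferon genes were near 0. All 10 interferon genes of a list of 28 pathway genes that are not in the set, among them Ifnb1, 4 alpha interferon genes and Ifng, were removed by the filter, with at most 5 counts in any library. Of the 17 pathway genes tested, 1 was called higher and 4 lower in rho0, 1 higher and 3 lower in PKO-1, and 1 higher and 4 lower in PKO-6. The shares lower were 23.5%, 17.6% and 23.5%, near the 21.4%, 17.9% and 19.4% of all tested genes, and the share higher was 5.88% in each line, against 20.7%, 16.4% and 21.9%. The interferon gamma receptor chains fell in every derived line: Ifngr1 by 1.04, 0.70 and 0.58 on the log2 scale in rho0, PKO-1 and PKO-6, and Ifngr2 by 0.80, 0.85 and 0.73. The type I receptor chains Ifnar1 and Ifnar2 and the kinases Jak1 and Tyk2 were not called against TM6 in any line.

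The lambda interferon receptor Ifnlr1 was at 16.4, 19.1 and 7.98 normalized counts in TM6, 4.84, 2.22 and 1.12 in rho0, 0 to 2.07 in PKO-1 and 124, 110 and 105 in PKO-6. It fell in rho0 (−2.32 ± 0.51) and was called lower in PKO-1, where no library had more than 2 counts, and it rose in PKO-6 (2.94 ± 0.30). Ifnlr1 passed the filter on low counts through PKO-6, so a high level there was a condition of being tested. Its rise in PKO-6 is thus no independent support, and it is the pathway gene counted above as higher in PKO-6. Among the brakes of the pathway, Socs3 fell in rho0 (−0.83) and PKO-6 (−1.25), Socs1 rose in PKO-1 (0.60), and the phosphatase Ptpn2 rose in rho0 (0.98). Irf7, which amplifies interferon production, fell in PKO-6 (−0.93 ± 0.26), from 58.8, 51.6 and 35.9 normalized counts to 29.5, 21.8 and 25.2. Jak2 was lower (−0.58) and Irf2 (0.52), Socs1 (0.69) and Socs3 (0.96) were higher in PKO-1 than in PKO-6.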

How the data were processed

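RNA of 12 libraries (3 biological replicates each of TM6, rho0, PKO-1 and PKO-6) was depleted of ribosomal RNA and sequenced in paired ends from a stranded kit, in technical duplicates that the authors merged. The strand setting of the counting is not given in the sources used here. RNA was taken with either of 2 kits, and which library had which is not given. The values the authors deposited are expected counts (estimated counts per transcript, collapsed to genes) and TPM, made with RSEM 1.2.25 and bowtie2 on RefSeq transcripts of mm10. The deposited TPM were summed per gene for levels. Expected counts were rounded.

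Tests used edgeR 4.0.16 in R 4.3.3: filterByExpr with a minimum count of 10 kept 14026 of 24453 genes, library sizes were scaled by TMM, and 4 lines were compared in 1 quasi-likelihood fit. Calls needed an adjusted p (Benjamini-Hochberg) under 0.01 and a log2 fold change beyond 0.5 either way. The SE is the log2 fold change divided by the square root of F. 95% intervals use 8 degrees of freedom. On simulated data with 200 genes changed by 1 on the log2 scale between rho0 and TM6, 80.5% were called, with 3 false calls. These were 200 of 14026 genes, with counts drawn from the fitted spread, whereas 20.7% and 21.4% of genes were called higher and lower in rho0. The simulation thus does not cover so wide a change or differences between clones. Ratios and floors (3 counts) cover counting error only. Copies come from GENCODE transcripts, and overlaps from the exon positions in the values the authors deposited per library. Of 26 genes with a promoter, the bases after the start were found in a GENCODE transcript for 24 (not Stat2 and Bst2).

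The genes and lists were chosen with earlier results of these data known. Named genes are all 34 members, with values per library for those called against TM6 as far as they help, and the pathway genes called in any comparison. Alternatives were DESeq2 1.42.0 (size factors, Wald test), no filter, a replicate block, the 2 lines compared alone, no Rn45s, a fold threshold of 1, each library left out, pooled PKO lines, and, chosen after seeing the data, chromosome medians removed and genes that passed the filter through TM6 alone left out. The pooled PKO lines entered the tally of lost calls for rho0 against TM6 only. A withheld pathway gene is counted but not reported by name.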

Additional observations from a re-analysis of the deposited data

Results flagged for a closer look

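The contrast of Cre-infected cells with TM6 was made in 2 clones, and 13 of the 31 tested genes differed between the clones by a direct test (PKO-1 against PKO-6, edgeR quasi-likelihood test, Benjamini-Hochberg). Of all tested genes, 11.5% were higher and 17.6% lower in PKO-1, where 9 and 4 of the 31 genes were. Each value is a log2 fold change of PKO-1 over PKO-6, from 3 libraries per clone. Higher in PKO-1 were Ifi27 (2.43, adjusted p = 1.30e-09), Ifit3 (1.95, adjusted p = 1.17e-07), Ifit1 (1.71, adjusted p = 4.26e-08), Rtp4 (1.41, adjusted p = 1.75e-06) and Isg15 (1.37, adjusted p = 2.16e-05). Samd9l (0.92, adjusted p = 9.00e-07), Parp9 (0.82, adjusted p = 7.49e-07), Dtx3l (0.63, adjusted p = 1.66e-06) and Ifitm3 (0.53, adjusted p = 0.000843) were higher by less than 1, and with chromosome medians removed Dtx3l (0.43) and Ifitm3 (0.42) were not called. Lower in PKO-1 were Oas1a (−2.86, adjusted p = 4.49e-08), Parp14 (−2.43, adjusted p = 2.54e-09), Usp18 (−1.43, adjusted p = 0.000418) and Isg20 (−0.60, adjusted p = 0.000301).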

How the results depend on the processing

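Over the 6 comparisons, 84 calls of a gene were made. Of these, 68 held under every alternative run on their comparison, 16 were lost under at least 1, and 0 reversed. The higher fold threshold and the removal of genes that passed through TM6 alone are not part of this tally. Pooling the PKO clones entered it for rho0 against TM6 only. With the clones pooled, 1 gene was called higher and 10 lower in PKO than in TM6, and 2 higher and 0 lower than in rho0. The pooled fit had a larger common spread (coefficient of variation 0.248, against 0.084 with 4 lines), which makes calls harder for every gene. Shares of all tested genes were not counted for the pooled fit, so these counts cannot be set against them. With an absolute log2 fold change above 1, 48 of the 84 remained. In rho0, 1 gene was higher and 9 lower than TM6. PKO-1 had 1 higher than TM6, and its lower genes were Irf1, Isg15, Usp18, Ifit1, Oas1a, Oasl1, Oasl2, Rsad2 and Parp14. PKO-6 had 0 higher, and its lower genes were Irf1, Isg15, Ifit1, Ifit3, Oasl1, Oasl2, Gbp3, Rsad2, Parp9, Ifi27 and Rtp4. Between the clones, 5 genes were higher in PKO-1, while Usp18, Oas1a and Parp14 were higher in PKO-6. Against rho0, PKO-1 had 3 higher, with Oas1a, Oas3 and Parp14 below rho0. PKO-6 had 1 higher and 2 lower than rho0. No share of all tested genes is given at this threshold. The count higher in rho0 was 1 with only the 2 lines compared, 1 with chromosome medians removed (chosen after seeing the data) and 0 with the PKO clones pooled, where Usp18, Ifit3, Ifi44, Ifi27 and Rtp4 were no longer called in rho0 and 11 genes were lower. The count higher in PKO-6 was 1 with chromosome medians removed, and with the replicate block it was also 1. A minimum count of 20 left 5 genes too low to judge, adding Mx2 and Rsad2. Leaving out each library in turn gave 1 to 2 genes higher and 14 to 16 lower in rho0, 2 to 3 and 10 to 13 in PKO-1, 1 to 2 and 16 to 18 in PKO-6, 8 to 10 and 4 to 4 between the clones, 7 to 9 and 3 to 3 for PKO-1 over rho0, and 4 to 5 and 5 to 7 for PKO-6 over rho0. Same-numbered replicates correlated at −0.34 to 0.23 (median 0.11), and those with other numbers at −0.38 to 0.45 (median −0.03). Correlations above 0.1 were seen in 10 of 18 same-numbered pairs and 10 of 36 others. The numbers were not read as pairs, though a shared effect of the replicate number is not excluded. The replicate block lost 2 calls (Gbp3 in PKO-1, Gbp2 in PKO-6). The cause of these changes was not tested. Genes under about 10 counts a library cannot be judged at this depth.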
